A study of Mus musculus with 24 samples.

Results

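Loss of the vitamin D receptor was examined in the nucleus accumbens of mice that had received PBS only, by comparing all genes between Vdr-/- mice 7, 8 and 9 and wild-type mice 1, 2 and 3. These 6 mRNA libraries were chosen by their labels from the 24 samples of the series, which also cover morphine and the ventral tegmental area (VTA), and 15933 of the 26381 genes in their table were tested. Wild-type (Vdr+/+) and Vdr-/- mice were both on a C57BL/6 background, and each received an intraperitoneal injection of PBS, by the account of the sequencing 90 min before tissue was taken (a methods passage gives a shorter time for saline controls), and bilateral punches 1.5 mm wide and 2 mm deep, covering core and shell, were taken. Vdr-/- mice lack the receptor in every tissue from conception. They were raised on a diet enriched in calcium and lactose, and the diet of the wild-type mice is not given in the sources used here, so genotype and diet cannot be told apart. The labels give neither age, sex nor litter. Loss of the receptor therefore cannot be told apart from other inherited differences between the groups, near Vdr or elsewhere. Transcripts of the Y-linked gene Ddx3y were present in all 6 mice (normalised read counts of 904 to 1173) with 0 to 6 reads of Xist.

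The vitamin D receptor is a nuclear receptor that binds calcitriol, pairs with a retinoid X receptor and controls genes through response elements in DNA. Outside the brain it is best known for calcium handling, and Cyp24a1, which inactivates calcitriol, is its classical target. The nucleus accumbens is the ventral part of the striatum, where medium spiny neurons receive dopamine from the VTA. The comparison in PBS-treated mice gives the baseline of the Vdr-/- accumbens, before any opioid.

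Depth was 11628792 to 24509714 reads on genes per library. The punches carried the markers of striatal tissue: the 8 medium spiny neuron markers summed to normalised read counts of 56810 to 75670 per library, against 260.8 to 465.1 for 6 dopamine neuron markers. Wild-type mouse 2 stood apart. Across genes, its deviation from the other libraries correlated with exon length at a Spearman's rho of -0.329 (0.0586 to 0.171 in the other 5 libraries) and with GC content at 0.398, and it differed from its group mates by a chi-square per degree of freedom of 32.9 and 34.5, against 9.68 between the other two wild-type mice and 4.80 to 7.20 among Vdr-/- mice. Results are therefore also given without it for some genes and lists, and the others can depend on it too. p-values measure the spread between these mice.

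Vdr itself did not tell the genotypes apart. The gene held 14, 1 and 7 reads in wild-type mice 1, 2 and 3 and 6, 10 and 6 reads in Vdr-/- mice 7, 8 and 9. The groups overlapped, the level was below the minimum for testing (a mean value of 10), and reads from parts of the transcript outside the deletion would count alike, so the genotypes rest on the labels. Cyp24a1 was at the same low level, with 2, 1 and 0 reads in wild-type and 3, 4 and 4 reads in Vdr-/- mice.

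Few genes differed between the genotypes, and 1 alpha-tubulin gene stood out. With limma and Benjamini-Hochberg adjustment at 0.05, 11 of 15933 genes were called (0.069%), 7 of them higher in Vdr-/- mice (0.0439%) and 4 lower (0.0251%). The higher genes were Tuba1c, Gabra2 and the pseudogenes Tmem181b-ps, Gm3226, Gm14150, Gm3756 and Rpl3-ps1. The lower genes were Gm15446, Olfr287, Emp2 and Ifit3. At an unadjusted p under 0.05 there were 1424 genes (8.94%), 578 higher (3.63%) and 846 lower (5.31%), and in 2700 genes (16.9%) the groups did not overlap, 1157 of them higher (7.26%) and 1543 lower (9.68%). Values were above 0 in 53.1% of all genes and below 0 in 46.9%. The median log2 fold change over all genes was 0.013 and the median absolute change 0.124, and 164 genes differed by more than 1 on the log2 scale.

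**Figure D1:**
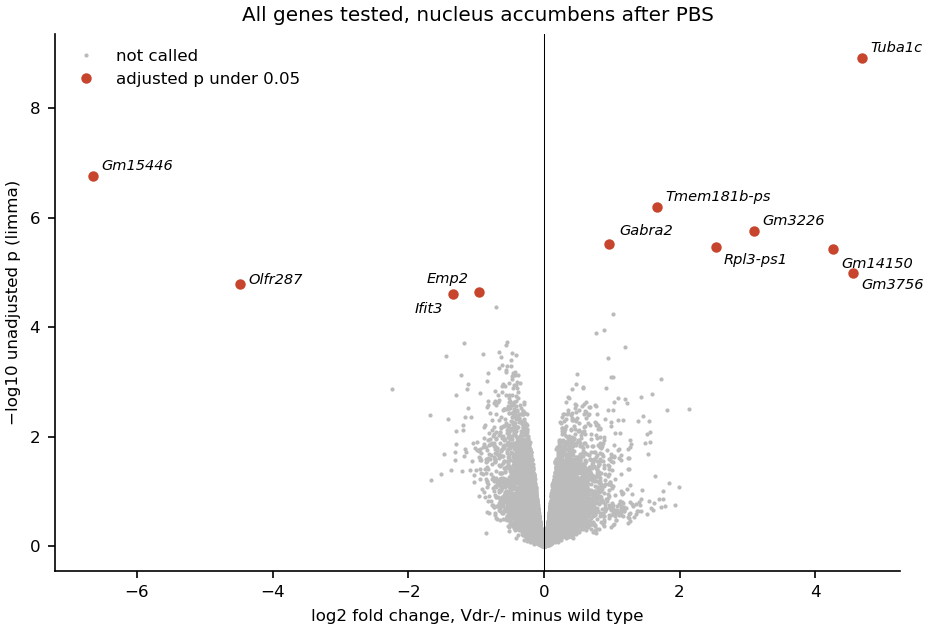
Each point is 1 of the 15933 genes tested, with the log2 fold change (Vdr-/- minus wild type, on the log2(value + 1) scale) on the x axis and −log10 of the unadjusted limma p on the y axis. The 11 genes with an adjusted p under 0.05 are red and named, and Tuba1c and Gm15446 lie at the far ends of the cloud.

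Tuba1c encodes an alpha-tubulin, the subunit that pairs with beta-tubulin in microtubules. Its normalised read count was 13.7, 15.7 and 14.4 in wild-type mice 1, 2 and 3 and 422, 394 and 383 in Vdr-/- mice 7, 8 and 9. The groups were thus far apart, with little spread in either. The mean rose from 14.6 ± 1.04 to 399.6 ± 20.1 (SD, n = 3 each), a log2 fold change of 4.69 ± 0.12 (SE, adjusted p = 2.0e-05, limma). Tuba1c lies at chr15:99029891-99038110 (GRCm38, plus strand), on the chromosome of Vdr. Its close relatives Tuba1b and Tuba1a, which lie next to it, had lower values in Vdr-/- mice without passing the test. Tuba1b held 2104, 2722 and 2590 in wild-type and 1988, 2061 and 1847 in Vdr-/- mice (log2 fold change -0.32, adjusted p = 0.48), and Tuba1a had a log2 fold change of -0.25 (adjusted p = 0.51). Of 15 tubulin genes tested, 11 had values above 0 and 4 below, Tuba1c was the only one called, and the median was 0.09 (all genes, 0.013).

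Gm3756, Gm14150 and Gm3226, of the higher pseudogenes, are copies of alpha-tubulin. Gm3756 had normalised read counts of 1.05, 2.86 and 5.75 in wild-type and 90.2, 83.1 and 88.6 in Vdr-/- mice (log2 fold change 4.55 ± 0.42, adjusted p = 0.020). Gm14150 had 2.10, 5.71 and 5.03 against 114, 98.5 and 76.6 (4.26 ± 0.35, adjusted p = 0.0086), and Gm3226 had 9.467, 9.997 and 9.339 against 87.4, 116 and 71.1 (3.10 ± 0.22, adjusted p = 0.0069). In all 3 the genotypes were separated by several fold. They lie on chromosomes 9, 2 and 13, away from Tuba1c, and Gm3226 also lies within the gene Il31ra. The 4 tubulin calls are set out together because their sequences overlap. Of the 25-base words of Gm3756, Gm14150 and Gm3226, 62.7%, 68.0% and 74.0% also occur in Tuba1c transcripts (GENCODE M21), and every such word occurs in Tuba1a or Tuba1b too. At 100 bases, about the length of 1 read, 39.8%, 54.4% and 64.7% of their words occur in some other gene, and so do 46.0% of those of Tuba1c.

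The start of the coding sequence shows this identity. The 60 coding bases of Tuba1c at positions 121 to 180, counted from the A of the start codon (chr15:99034211-99034270, GRCm38, plus strand), were the same in Tuba1a, Tuba1b, Gm14150, Gm3756 and Gm3226, and are shown because these bases alone cannot tell the 6 genes apart:
Tuba1c coding bases 121 to 180: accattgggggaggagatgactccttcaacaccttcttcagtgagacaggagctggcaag

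Of 86 such windows along the coding sequence, 9 were the same in all 6 genes. Elsewhere the pseudogenes were closer to Tuba1a and Tuba1b: 15.85%, 12.03% and 12.44% of the 25-base words of Gm3756, Gm14150 and Gm3226 occur in Tuba1a or Tuba1b but not in Tuba1c, and 0 of their words occur in Tuba1c alone of these relatives. How the counting treated reads that match several of these copies was not tested. The 3 pseudogene values are therefore uncertain and cannot be read as independent of Tuba1c, Tuba1a or Tuba1b. Shared words do not tie them to Tuba1c in particular, and whether the tubulin calls are a single signal was not tested.

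**Figure D2:**
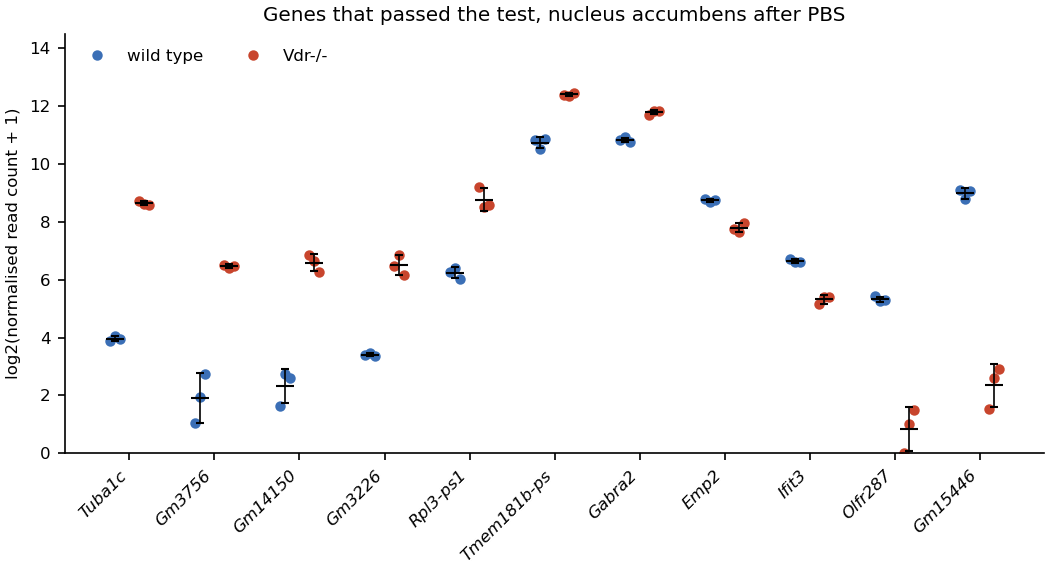
The y axis gives log2(normalised read count + 1) of the 11 genes called, with 1 point per mouse (wild-type mice 1, 2 and 3 in blue, Vdr-/- mice 7, 8 and 9 in red), the mean as a bar and the SD as the error bar. The groups do not overlap in any of the 11 genes, and Tuba1c is at a mean value of 14.6 in wild-type and 399.6 in Vdr-/- mice.

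Gabra2 was the other protein-coding gene that rose. It encodes the alpha-2 subunit of the GABA-A receptor, the chloride channel behind fast inhibition. Its normalised read count was 1797, 1931 and 1751 in wild-type and 3322, 3631 and 3657 in Vdr-/- mice, with no overlap. The mean rose from 1826 ± 93.7 to 3537 ± 187, which is 1.94-fold (log2 fold change 0.95 ± 0.07, adjusted p = 0.0086, limma). Gabra2 shares almost no long words with other genes (0.139% at 100 bases). Of the 16 GABA receptor subunits tested, 12 had values above 0 and 4 below with a median of 0.11, and none but Gabra2 was called. Gabrd, a subunit of extrasynaptic receptors, had a log2 fold change of -0.27 (adjusted p = 0.46).

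Tmem181b-ps and Rpl3-ps1 were the remaining higher genes, both pseudogenes. Tmem181b-ps, a transcribed copy of the membrane protein gene Tmem181a, had normalised read counts of 1815, 1462 and 1879 in wild-type and 5387, 5259 and 5605 in Vdr-/- mice (log2 fold change 1.66 ± 0.10, adjusted p = 0.0034). Its parent Tmem181a, which holds 29.6% of its 100-base words, had means of 1162 and 1290 (log2 fold change 0.15, adjusted p = 0.61). Rpl3-ps1 is a copy of Rpl3, which encodes a protein of the large ribosomal subunit, and had 75.7, 84.3 and 64.7 against 593, 366 and 379 (2.53 ± 0.20, adjusted p = 0.0086). Rpl3 itself held 4661, 5806 and 4466 in wild-type and 2328, 3707 and 3682 in Vdr-/- mice (log2 fold change -0.64, adjusted p = 0.46), so the pair pointed in opposite directions, with only the pseudogene past the test. Of the 100-base words of Rpl3-ps1, 85.8% occur in Rpl3. A 60-base window of each is shown because 1 base, in a capital, is all that separates them there, and 69 of 76 such windows did not differ at all:
Rpl3: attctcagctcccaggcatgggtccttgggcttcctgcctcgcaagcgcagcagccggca
Rpl3-ps1: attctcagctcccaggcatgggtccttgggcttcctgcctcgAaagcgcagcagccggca

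Gm15446, a predicted gene on chromosome 5 that shares sequence with the zinc finger gene Zfp932, was nearly absent in Vdr-/- mice. Its normalised read count was 551, 437 and 539 in wild-type and 1.86, 5.13 and 6.46 in Vdr-/- mice. The mean fell from 509 ± 62.6 to 4.48 ± 2.37 (log2 fold change -6.64 ± 0.35, adjusted p = 0.0014, limma), the largest change of the genes called. Zfp932, which holds 16.2% of its 100-base words, was at 577 ± 46.7 and 508 ± 17.03 (log2 fold change -0.18, adjusted p = 0.59).

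Olfr287, an olfactory receptor gene at chr15:98206971-98221056, lies 0.296 Mb from Vdr. It held 42.1, 37.1 and 38.1 in wild-type mice and 0, 1.03 and 1.85 in Vdr-/- mice, a clear separation at a low level (log2 fold change -4.48 ± 0.45, adjusted p = 0.029). Over each group this was 119 reads against 3, a ratio of depth-adjusted values of 40.9 with a 95% interval of 13.6 to 201 that covers counting error only. It overlaps the gene model Gm44579 on the same strand, with which it shares 28.3% of its 100-base words.

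Emp2 and Ifit3 fell by smaller factors. Emp2, a membrane protein of the PMP22 family, held 445, 414 and 427 in wild-type and 216, 201 and 247 in Vdr-/- mice (log2 fold change -0.96 ± 0.10, adjusted p = 0.036). Ifit3, an interferon-induced antiviral gene, held 105, 95.7 and 97.7 against 34.4, 41.0 and 41.5 (-1.33 ± 0.14, adjusted p = 0.036). Ifit3b, which holds 31.7% of the 100-base words of Ifit3, held 75.7, 67.1 and 61.1 against 42.8, 50.3 and 61.8 and was not called (log2 fold change -0.40, adjusted p = 0.57). Interferon-stimulated genes did not move together: of 19 tested, 10 had values above 0 and 9 below, with a median of 0.004, and Ifit3 was the only one called.

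The calls rested on 3 mice a group, where an exact permutation test over the 20 arrangements cannot go below p = 0.1. All 11 genes were also called by DESeq2, by edgeR and without wild-type mouse 2, while Tuba1c and Gm15446 were the only 2 still called without Vdr-/- mouse 8.

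Ndn, the imprinted growth suppressor necdin, had the smallest p of the higher genes not called, with 1476, 1644 and 1236 in wild-type and 2663, 3247 and 2887 in Vdr-/- mice (log2 fold change 1.02 ± 0.12, adjusted p = 0.072). The groups were well apart, but the gene missed the threshold. Without wild-type mouse 2 the count of genes called was 28 (0.175%), 10 higher (0.0626%) and 18 lower (0.113%), and these included Ndn, Hif3a, Wdfy1, Nes, Eng and Flt1. By DESeq2 it was 65, 24 higher and 41 lower. The 10 uncalled higher genes with the smallest p also held Hif3a (0.88), Wdfy1 (0.78), Cd59a (1.19), Greb1l (0.94), Upp2 (0.49), 1700048O20Rik (0.99), Rasd1 (1.02), Plin4 (1.73) and Fkbp5 (0.48), given as log2 fold changes with adjusted p-values of 0.13 to 0.33. Of these, Cd59a encodes an inhibitor of the complement membrane attack complex and Rasd1 a Ras-like protein induced by dexamethasone. The uncalled lower genes with the smallest p included Unc5b (-0.54), Aim2 (-1.17), Kcnh4 (-0.56), Eng (-0.66), Tmem88b (-0.47), Nes (-0.90), Tgfa (-0.41), Mid1 (-1.44) and Cdc42ep1 (-0.63), with adjusted p-values of 0.18 to 0.22. Aim2 is a cytosolic DNA sensor, Eng a TGF-beta co-receptor of endothelial cells and Nes the intermediate filament nestin.

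Genes around Vdr were examined because 2 of the 11 calls lay there, and those calls are part of the counts below, whose windows are nested. Within 1 Mb of Vdr 32 genes were tested, of which 1 (Olfr287) was called and 5 (15.6%) had an unadjusted p under 0.05, against 8.94% of all genes. Within 5 Mb it was 15 of 124 genes (12.1%), with Tuba1c and Olfr287 called, and within 10 Mb 19 of 174 (10.9%). On the rest of chromosome 15 it was 8.94% of 414 genes, and on other chromosomes 8.92%. Col2a1, a collagen chain of cartilage, lies 0.065 Mb from Vdr and held 55.7, 30.0 and 39.5 in wild-type against 7.44, 4.10 and 14.8 in Vdr-/- mice (log2 fold change -2.24 ± 0.45, adjusted p = 0.33). Tmem106c, Ccdc184 and Zfp641, all within 0.375 Mb, had log2 fold changes of -0.47, -0.50 and -0.43. The groups did not overlap in any of these 4 genes, which were chosen after their values were seen. Of all 32 genes tested within 1 Mb, 9 (28.1%) did not overlap, Olfr287 among them, against 16.9% of all genes.

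**Figure D3:**
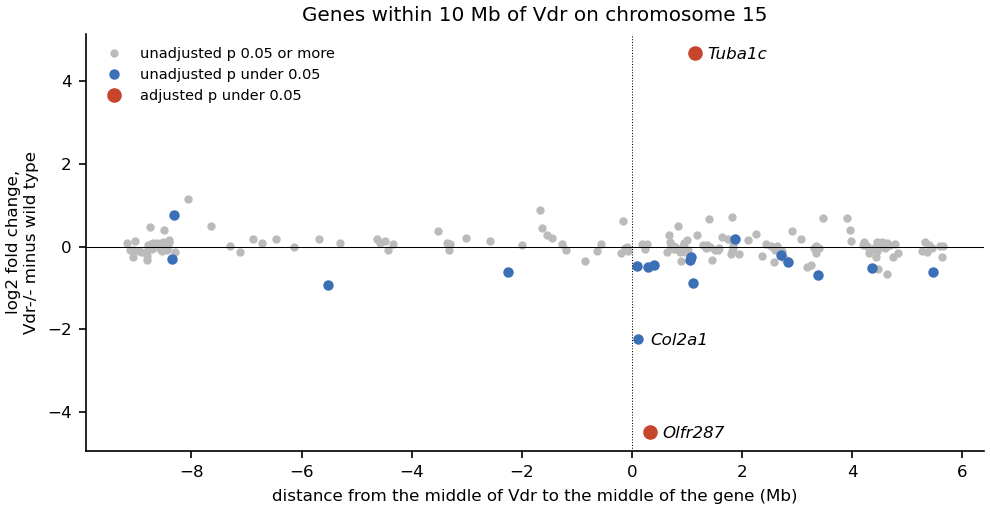
Genes tested on chromosome 15 within 10 Mb of Vdr are placed by their distance from it (x axis, Mb) and their log2 fold change, Vdr-/- minus wild type (y axis). Tuba1c at 4.69 and Olfr287 at -4.48 (red, adjusted p under 0.05) and Col2a1 at -2.24 lie away from the line of 0, along which nearly all of the 174 genes are found.

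No gene of the vitamin D pathway was called. Of 15 receptor partners and metabolic genes tested, 6 had values above 0 and 9 below, with a median of -0.04. Without wild-type mouse 2 it was 3 above and 12 below, with a median of -0.06. Rxrg, the retinoid X receptor of the striatum that can pair with the vitamin D receptor, held 1292, 1307 and 1345 in wild-type and 956, 776 and 961 in Vdr-/- mice. The groups did not overlap, but the log2 fold change of -0.56 ± 0.10 was not called (adjusted p = 0.29, limma), while DESeq2 gave an adjusted p of 0.0036. Cyp27b1, which makes calcitriol, held 26.3, 30.0 and 25.1 against 14.9, 13.3 and 24.0 (-0.65 ± 0.27, adjusted p = 0.54). Rxra and Rxrb had log2 fold changes of -0.03 and -0.18. Of 19 known targets of the receptor 10 were tested, 6 with values above 0 and 4 below. Cdkn1a, a cell cycle inhibitor, held 251, 249 and 261 in wild-type and 283, 340 and 337 in Vdr-/- mice (0.33 ± 0.10, adjusted p = 0.46). Gdnf, a neurotrophic factor for dopamine neurons, held 70.5, 64.3 and 48.8 against 24.2, 40.0 and 40.6 (-0.81 ± 0.25, adjusted p = 0.46). Of 30 genes for calcium binding, pumps and channels, 19 had values above 0 and 11 below with a median of 0.07, and none was called. Without wild-type mouse 2 it was 15 above and 15 below, with a median of -0.002. In the 6 libraries the smallest p-values of this list were those of the plasma membrane pump Atp2b4 (0.41) and the T-type channel Cacna1i (-0.23), given as log2 fold changes.

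Opioid genes were not called either. Of 7 tested, Oprk1, the kappa receptor, held 841, 934 and 919 in wild-type and 1016, 1029 and 1212 in Vdr-/- mice (log2 fold change 0.27 ± 0.09, adjusted p = 0.49), and the enkephalin precursor Penk had -0.29 ± 0.15 (adjusted p = 0.60). Oprm1, the mu receptor on which morphine acts, held 282, 15.7 and 239 in wild-type and 185, 247 and 274 in Vdr-/- mice. Its log2 fold change of 1.16 ± 0.99 (adjusted p = 0.73) stood beside a single low value, that of wild-type mouse 2, and the other 5 mice overlapped.

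Glucocorticoid-responsive genes leaned upwards in Vdr-/- mice after PBS. The list, like the other gene lists, was chosen with earlier results of these data known, so its counts are descriptive and no independent support. Of 21 tested, 18 had values above 0 and 3 below, 13 had an unadjusted p under 0.05 in the higher and 1 in the lower direction (all genes, 3.63% and 5.31%), and the median log2 fold change was 0.45 (all genes, 0.013). None was called by limma. DESeq2, which called 65 of the 15933 genes given to it, called Hif3a (adjusted p = 3.3e-06), Plin4 (2.7e-05), Sult1a1 (0.012), Fkbp5 (0.018) and Angptl4 (0.049), all higher. Hif3a, a regulator of the hypoxia response that glucocorticoids induce, held 374, 381 and 305 in wild-type and 581, 682 and 688 in Vdr-/- mice (0.88 ± 0.12, adjusted p = 0.13, limma). Plin4, a lipid droplet protein, held 248, 150 and 144 against 462, 929 and 459 (1.73 ± 0.32, adjusted p = 0.31). Fkbp5, which restrains the glucocorticoid receptor, held 905, 893 and 750 against 1141, 1166 and 1226 (0.48 ± 0.09, adjusted p = 0.33), and Sgk1, a kinase, held 1908, 1720 and 1105 against 2252, 2555 and 2651 (0.69 ± 0.20, adjusted p = 0.44). Of the 21 genes, 12 did not overlap in the higher and 1 in the lower direction (all genes, 7.26% and 9.68%). Hif3a, Plin4, Fkbp5 and Sgk1 were among the 12, the first 3 being named by a rule that requires it. The phosphatase gene Dusp1, which is also on the activity-regulated list below, went the other way (-0.43). Without wild-type mouse 2 the median was 0.43, 19 genes had values above 0 (all genes, 50.4%), 14 had an unadjusted p under 0.05 in the higher and 1 in the lower direction (all genes, 6.11% and 7.82%), and Hif3a was called.

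Activity-regulated genes leaned downwards. Of 29 tested, 6 had values above 0 and 23 below, 9 had an unadjusted p under 0.05 in the lower and 0 in the higher direction (all genes, 5.31% and 3.63%), and the median was -0.22. None was called by limma or DESeq2. Junb held 666, 634 and 749 in wild-type and 535, 408 and 542 in Vdr-/- mice (-0.47 ± 0.13, adjusted p = 0.42), and Klf4 had -0.65 ± 0.19 (adjusted p = 0.44). Fos, the gene most used to mark recently active neurons, held 236, 217 and 370 against 197, 144 and 236 (-0.50 ± 0.25, adjusted p = 0.60), and its groups overlapped. Arc, Egr1 and Npas4 had log2 fold changes of -0.80, -0.58 and -0.57. Without wild-type mouse 2 the median was -0.41, and 17 genes had an unadjusted p under 0.05 in the lower direction (all genes, 7.82%).

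The endoplasmic reticulum chaperone list, which also holds transcription factors such as Xbp1 and Atf4, had values below 0 in 16 of 18 genes. Of these, 6 were at an unadjusted p under 0.05 (all genes, 5.31% lower), Xbp1 and Atf4 among them, and the median of the list was -0.21. Xbp1, a transcription factor of the unfolded protein response, held 1183, 1154 and 1090 in wild-type and 841, 888 and 898 in Vdr-/- mice (-0.38 ± 0.07, adjusted p = 0.29 by limma and 0.030 by DESeq2), and the lectin chaperone Calr had -0.28 ± 0.08 (adjusted p = 0.43). Heat shock and cold-inducible genes had values below 0 in 12 of 16 with a median of -0.15, among them Hspa1a (-0.69 ± 0.23, adjusted p = 0.48) and Hsph1 (-0.23). Of 63 subunits of oxidative phosphorylation tested, 25 had values above 0 and 38 below, with a median of -0.014. Without wild-type mouse 2 this turned to 45 above and 18 below, with a median of 0.04.

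Genes of medium spiny neurons had values below 0 in 21 of 25, with a median of -0.18, and 4 had an unadjusted p under 0.05, all lower (all genes, 5.31%). Without wild-type mouse 2 it was 8 lower and 2 higher (all genes, 7.82% and 6.11%). The dopamine receptor gene Drd1 held 3895, 3810 and 3401 in wild-type and 3074, 2915 and 3135 in Vdr-/- mice (-0.28 ± 0.08, adjusted p = 0.43), and Drd2 held 3658, 3363 and 3132 against 2620, 2443 and 2984 (-0.34 ± 0.10, adjusted p = 0.46). Neither was called, although neither overlapped between the groups. Among other neuronal lists, glutamate receptor subunits had values above 0 in 18 of 22 (median 0.09) and neuropeptides in 8 of 16 (median -0.002). For neurotrophin and GDNF signalling genes it was 9 of 11 (median 0.10), for clock genes 9 of 18 (median -0.01) and for cholesterol synthesis genes 13 of 22 (median 0.03). Without wild-type mouse 2, glutamate receptor subunits were above 0 in 13 of 22 (median 0.06). Neuropeptides were then above 0 in 12 of 16 (median 0.22) and neurotrophin and GDNF signalling genes in 7 of 11 (median 0.04). Per3 among clock genes (0.42), Grin2c and Grm4 among glutamate receptors (-0.42 and -0.32), the neuropeptide Cort (-0.99) and Fdft1 and Lss in cholesterol synthesis (0.20 and 0.19) had the smallest p of their lists and were not called.

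No marker of a cell type was called by limma in the 6 libraries, but several lists had values on 1 side of 0. All 12 oligodendrocyte markers had values below 0, 8 of them at an unadjusted p under 0.05 (all genes, 5.31% lower), with a median of -0.31. Their summed value was 115000, 89970 and 87750 in wild-type and 79860, 78930 and 83070 in Vdr-/- mice, without overlap. Aspa, the N-acetylaspartate hydrolase of oligodendrocytes, held 299, 271 and 282 against 166, 203 and 184 (-0.62 ± 0.10, adjusted p = 0.27, limma), and DESeq2 gave an adjusted p of 0.012. In such bulk samples, fewer cells of a type and less RNA per cell cannot be told apart. All 10 microglial markers were below 0 (sums of 6897 to 7397 in wild-type and 6327 to 6865 in Vdr-/- mice), as were 7 of 9 endothelial markers (5696 to 6061 against 5201 to 5646), and neither pair of sums overlapped. Without wild-type mouse 2, 8 of the 10 microglial markers were below 0. Of the endothelial markers, Cldn5, a tight junction protein, had -0.72 ± 0.16 (adjusted p = 0.38). All 8 medium spiny neuron markers were below 0, with sums that overlapped. Markers of cortical excitatory neurons, a sign of how a punch was placed, had values above 0 in 7 of 8 (5 of 8 without wild-type mouse 2). Their sums of 8143 to 17950 in wild-type and 12860 to 22150 in Vdr-/- mice overlapped. Sums of 4 markers of oligodendrocyte precursors (2905 to 3188 against 2488 to 2889) also did not overlap. Nor did those of 7 fibroblast and meningeal markers, which were higher in Vdr-/- mice (707.6 to 758.4 against 760.3 to 826.9). The groups lay close together in several of these sums, and the sums of all other marker lists overlapped. Among single genes, 16.9% of all tested did not overlap. The part of these shifts in the lists above was not tested.

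**Figure D4:**
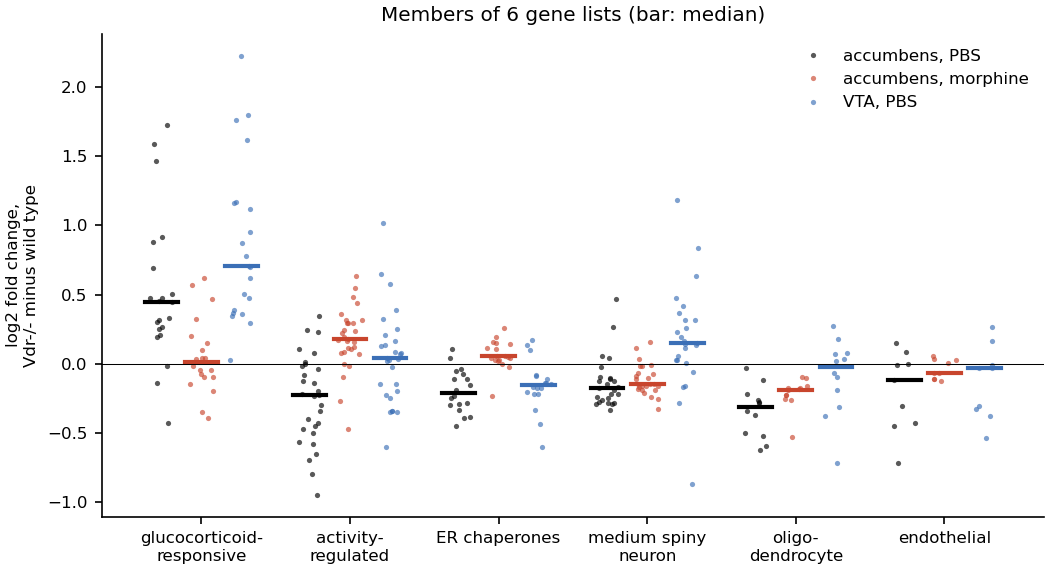
Each point is a member of 1 of 6 gene lists, and the y axis gives its log2 fold change (Vdr-/- minus wild type) in the accumbens after PBS (black), in the accumbens after morphine (red) and in the VTA after PBS (blue), with bars at the medians. After PBS the median of the glucocorticoid-responsive list is 0.45 and those of the other 5 lists are below 0.

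The genotype difference was then set beside that in 6 other mice, 3 of each genotype, which had received morphine at 5 mg/kg. All 11 genes had the same direction there, without overlap in any. The share of all genes without overlap was 16.9% in the PBS accumbens and was not counted in the morphine mice or the VTA. Of the 11 genes, 9 were called (30 of 15638 genes, 0.192%, with 0.0703% higher and 0.121% lower). Tuba1c held a mean of 4.95 in wild-type and 394 in Vdr-/- mice given morphine (log2 fold change 6.07, adjusted p = 9.9e-09, limma), Gm15446 399 and 3.84 (-6.38) and Gabra2 1675 and 3242 (0.95, adjusted p = 7.1e-07). Emp2 (-0.49, adjusted p = 0.18) and Ifit3 (-1.34, adjusted p = 0.14) were the 2 not called. The other morphine calls were not among the 11. Tuba1b was called lower there (-0.38, adjusted p = 0.028), and Tuba1a was not (-0.34, adjusted p = 0.10). Among the uncalled genes, Cd59a (1.17, adjusted p = 0.0050), Aim2 (-1.33, adjusted p = 0.027) and Mid1 (-1.43, adjusted p = 0.0010) were called in the morphine mice, in the same direction as after PBS. Ndn was not called there and lay on the other side of 0 (-0.41, adjusted p = 0.78).

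In the test of the difference itself, the genotype effect after PBS against that after morphine, 0 of 15786 genes passed (limma), 916 (5.8%) had an unadjusted p under 0.05, and edgeR gave 0 and 889. Tuba1c differed by -1.42 on the log2 scale (adjusted p = 0.39). The median of the glucocorticoid-responsive genes was 0.45 after PBS and 0.009 after morphine, where 5 of 20 had an unadjusted p under 0.05 in the higher and 2 in the lower direction (all genes, 3.5% and 4.23%, together 7.73%). For the difference between the injections, 7 of 20 had an unadjusted p under 0.05 for a more positive difference after PBS and 1 for a more negative one (all genes, 2.29% and 3.51%). After morphine, 9 of 30 activity-regulated genes had an unadjusted p under 0.05 in the higher and 0 in the lower direction. Npas4 was called higher in these mice (0.44, adjusted p = 0.044, limma). For activity-regulated genes the medians were -0.22 and 0.17, with 11 of 30 at an unadjusted p under 0.05 for a more negative difference after PBS and 0 for a more positive one. For the endoplasmic reticulum chaperone list they were -0.21 and 0.05, with 6 of 18 and 0. No member of the 3 lists passed the adjusted test of this difference. The medians of medium spiny neuron genes were -0.18 and -0.15, and those of oligodendrocyte markers -0.31 and -0.19.

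In the VTA of PBS mice, all 11 genes again had the same direction without overlap, and 9 were called (64 of 16425 genes, 0.39%, with 0.256% higher and 0.134% lower), the same 9 as in the morphine mice. The VTA libraries carry the same mouse numbers as those of the accumbens and were taken to come from the same animals, so they are not counted as a second set of mice. Tuba1c held 19.9 and 795 (log2 fold change 5.30, adjusted p = 8.8e-05, limma), Gabra2 1106 and 2718 (1.29, adjusted p = 0.0024) and Olfr287 158 and 31.2 (-2.31, adjusted p = 0.0014). Emp2 (-1.06) and Ifit3 (-0.83) were not called. Tuba1b (-0.54, adjusted p = 0.012) and Tuba1a (-0.42, adjusted p = 0.018) were called lower in the VTA. Of the uncalled accumbens genes, Hif3a (1.12, adjusted p = 9.8e-05), Wdfy1 (1.13, adjusted p = 9.8e-05), Cd59a (0.86, adjusted p = 0.0038), Plin4 (1.80, adjusted p = 0.019) and Aim2 (-1.17, adjusted p = 0.047) were called in the VTA. The glucocorticoid-responsive list had a median of 0.70 there, with 8 of its 21 genes called, all higher, and 16 at an unadjusted p under 0.05 in the higher direction (all genes, 6.72%, and 7.52% in the lower), among them Cdkn1a (1.62, adjusted p = 0.018) and Nfkbia (0.87, adjusted p = 0.019). Activity-regulated genes had a median of 0.04 and oligodendrocyte markers of -0.02. With the shared number as the mouse, the genotype effect differed between accumbens and VTA in 0 of 16301 genes (limma), with 901 (5.53%) at an unadjusted p under 0.05, and edgeR with that number as a block gave 0 and 884. Of 21 glucocorticoid-responsive genes 8 had an unadjusted p under 0.05 for a more negative difference in the accumbens and 0 for a more positive one (all genes, 3.44% and 2.09%).

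**Figure D5:**
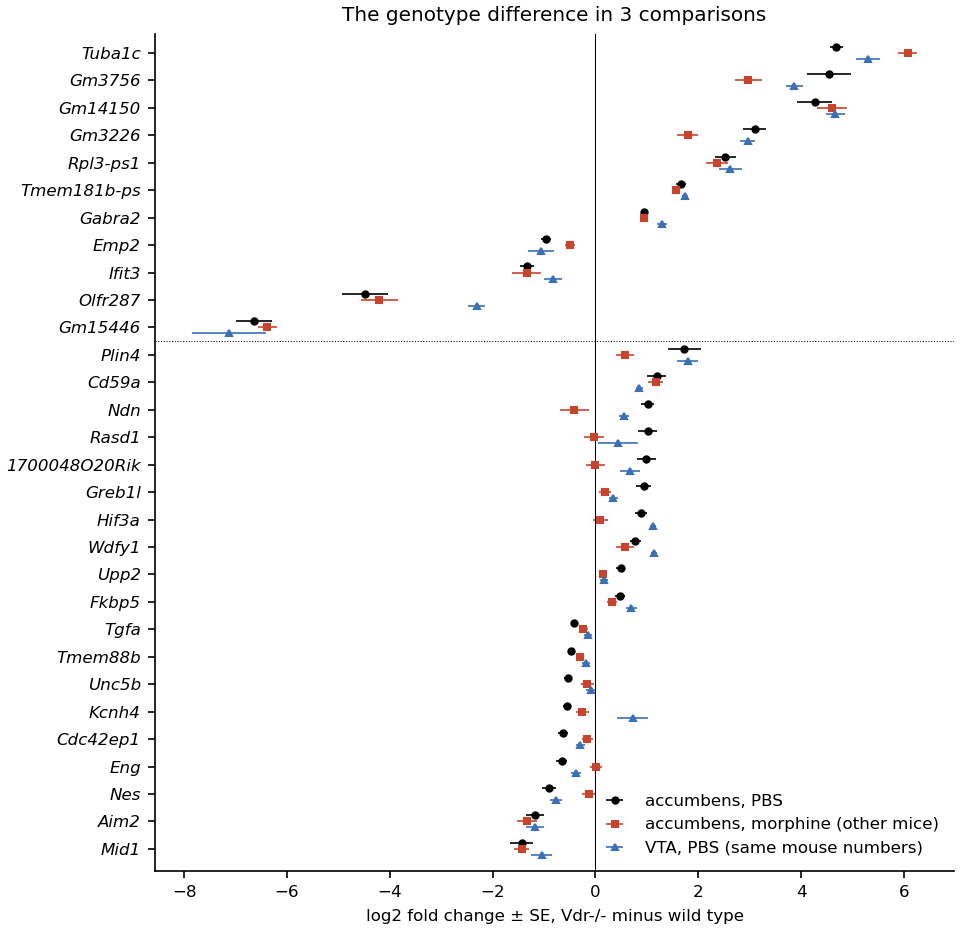
The x axis gives the log2 fold change ± SE (Vdr-/- minus wild type) of the 11 genes called (above the dotted line) and of the uncalled genes with the smallest p in either direction (below it) in the accumbens after PBS (black), in the accumbens of other mice after morphine (red) and in the VTA of the PBS mice (blue). All 11 called genes lie on 1 side of 0 in the 3 comparisons, while Ndn is at 1.02 after PBS and at -0.41 after morphine.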

How the data were processed

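Bilateral punches were sequenced as directional mRNA libraries with paired-end reads. Per the labels and the methods, the authors trimmed reads with Trimmomatic 0.36, mapped them with STAR 2.4.2a to GRCm38 with GENCODE genes and counted reads per gene, after base calling with CASAVA 1.8 (versions from the submitters' processing notes). The deposited signal values are counts divided by DESeq2 size factors within 1 table per pair of groups. In each library 100% of values were whole multiples of 1 read (tolerance 0.01), so the reads could be recovered, and whether reads were counted by strand is not given in the sources used here.

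The 6 libraries were fitted without covariates on log2(value + 1), a scale that understates changes of low genes, where the mean value reached 10 or more. limma 3.58.1 gave two-sided p-values (trended eBayes), which were adjusted over every tested gene by Benjamini-Hochberg and called below 0.05. The PBS and morphine effects, and the 2 regions within mouse numbers (taken as the same animals, which the labels do not state), were compared in limma on recovered reads scaled together over 12 libraries. DESeq2 1.42.0 and edgeR 4.0.16 on recovered reads, other scalings, filters and pseudocounts, library weights and leaving out each mouse were alternatives (R 4.3.3, Python 3.11.15). The limma fit of the 6 libraries was tested on simulated counts that held no outlying library, and the other fits were not tested in this way. Positions come from GENCODE M21 (26323 of 26381 identifiers, 99.8%), and words were compared over its transcripts on both strands.

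Named genes are Vdr, every gene called, the 10 higher and 10 lower uncalled genes without overlap that had the smallest p, the called members or else the 2 members with the smallest p of each list, and Fos. Oprm1, Col2a1, Sgk1, Dusp1, Arc, Egr1, Npas4, Aspa, Cldn5, Nfkbia, relatives by sequence and genes near Vdr were chosen after their values were seen. The comparison and the gene lists, compiled from general knowledge, were chosen with earlier results of these data known. Some lists share members, among them Dusp1 and Cdkn1a, so they are not independent. Some genes that this rule names, and some sequence, are not reported here.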

Additional observations from a re-analysis of the deposited data

How the results depend on the processing

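The count of 11 genes called was 8 to 13 under other pseudocounts, filters, scalings, without a variance trend, with GC content and exon length removed and by edgeR on the 6 libraries. It was 65 by DESeq2 on recovered reads, 44 by edgeR on all 12 accumbens libraries and 44 with library quality weights. Leaving out 1 mouse gave 2 to 28 genes: leaving out wild-type mouse 2 gave 28, wild-type mouse 3 gave 6, and Vdr-/- mice 7, 8 and 9 gave 5, 2 and 4, each from a fit of 5 libraries. The 7 genes higher and 4 lower were 24 and 41 by DESeq2 and 15 and 29 by edgeR on 12 libraries. The genes called in the last 4 of these fits were all among the 11. The difference between PBS and morphine went from 0 to 1 gene without wild-type PBS mouse 1 (Fmo2) or wild-type morphine mouse 1.2 (Tuba1c), and leaving out the others gave 0. The difference between regions stayed at 0 genes in each setting run, among them edgeR with the mouse number as replicate block (0). No paired analysis was possible for genotype because wild-type and Vdr-/- mice share no mouse number. For the 58 named genes tested, 993 of 1096 values under alternatives kept direction and side of the threshold, 37 lost the call, 66 gained one and 0 changed sign. Of the medians of lists under alternatives, 336 stayed within the spread between replicates and 6 did not. Depth limits Vdr, Cyp24a1, Olfr287 and the wild-type values of the tubulin pseudogenes, which hold few reads. The causes of these shifts were not tested.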

Other observations

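Beyond the comparison of genotypes, 2 lists of other cell sources varied between mice of the same group. Blood genes summed to normalised read counts of 923.5 to 3394 in wild-type and 1131 to 3225 in Vdr-/- mice, and all 5 had values above 0, without a call. Without wild-type mouse 2 it was 2 of 5, and the median went from 0.30 to -0.12. Septal markers summed to 2134 to 2809 and 2395 to 3110. Of the choroid plexus markers Kcnj13 was at 0. Astrocyte markers had values above 0 in 4 of 10, and the sum of wild-type mouse 2 (60820) was below those of the other 5 mice (87330 to 98470).

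Wild-type mouse 1 also held 131 of Fmo2, a flavin monooxygenase, against 30.0 and 35.2 in wild-type mice 2 and 3 and 121 to 174 in Vdr-/- mice (log2 fold change 1.53 ± 0.52, adjusted p = 0.48, limma), and the gene was called without that mouse.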
